A study of Mus musculus with 2 samples.

Results

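Stacks rich in identical reads are places where many sequenced fragments start at exactly the same base of the same strand. They were sought in ChIP-seq reads (sequenced DNA fragments recovered with an antibody) of primary mouse osteoblasts, the bone-forming cells, of strain 129sv. Chromosomes 1 to 19 were divided into bins of 500 bp, and a bin was a stack where it held 20 or more reads in both libraries together and 2 or more reads per distinct position. A distinct position is 1 combination of chromosome, 5′ end and strand, counted in each library and then summed. The rule found 25 stack bins among the 295 bins with 20 or more reads (8.47%) and among the 2878577 bins that held any read. Adjacent stack bins joined into 18 sites on 8 chromosomes. The members were chosen by these summed reads and reads per position, so their levels are a description and carry no test.

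The libraries came from chromatin precipitated with antibody sc-30486 (Santa Cruz biotechnology) against Tnni2, the fast skeletal muscle troponin I, an inhibitory subunit of the troponin complex. The mutant library was from mice homozygous for the del175k allele of Tnni2 and the other from wild-type littermates. The labels give no treatment, time or age. The series text names 3 animals but does not say how they were combined, so each genotype is 1 library and no difference below has a replicate check. Neither input DNA nor a control antibody was analysed here.

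In a library of unrelated fragments from unique sequence, few reads share a start. Copies arise when a fragment is amplified by PCR or when 1 molecule seeds or is read as neighbouring clusters on the flow cell. Starts can also coincide without copying where very many fragments are placed on a short stretch. Satellite DNA is the best known source of such placement: its tandem units are repeated very often around mouse centromeres, but an assembly holds only a few of them, so that short reads from many copies are placed on few bases. The reads carry no sequence in the deposited files and no genome of their build was used. Whether a site holds a repeat, a gene, an exon or an intron, and the repeat-like part of the working name, could therefore not be checked, and no site sequence is printed. Coordinates are those of the files, counted from 1, and the build is uncertain. The series text names mouse reference 8, but reads end as far as 197192105 on chromosome 1 and 152524453 on chromosome 7, which from general knowledge lie within mm9 and beyond mm8 and GRCm38.

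On chromosomes 1 to 19 there were 3189487 mutant reads at 2927228 distinct positions and 3193402 wild-type reads at 2821498. Stack bins held 8147 of the mutant reads, 0.255% (95% exact Clopper-Pearson interval 0.250 to 0.261%). They held 7511 of the wild-type reads, 0.235% (0.230 to 0.241%). Of the distinct positions they held 0.0552% for the mutant (0.0526 to 0.0580%) and 0.0555% for the wild type (0.0528 to 0.0584%). These intervals cover counting error only, and copies of 1 fragment are not independent molecules, so those on reads are too narrow by an unknown amount. A ratio below is mutant over wild type, scaled to each library's reads or positions on chromosomes 1 to 19. It was 1.09 for stack reads (1.05 to 1.12) and 0.995 for stack positions (0.927 to 1.07). The interval for reads excluded 1 and that for positions did not, but both describe counts that the rule used and neither is a test of genotype. The read ratio turned to 0.932 when bins with 10 or more reads were admitted.

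Identical reads were piled far higher in the stacks than elsewhere, as the rule requires. Stack bins had 5.04 mutant and 4.79 wild-type reads per position, against 1.09 and 1.13 over the rest of chromosomes 1 to 19. The fullest stack position held 60 mutant reads, and another held 84 wild-type reads. Outside the stacks the fullest held 8 and 12. Positions with 10 or more identical reads numbered 183 in the stacks of each library, against 0 and 2 outside them. They took 52.8% of the mutant and 53.8% of the wild-type stack reads. Many stack positions were nonetheless read once, 524 of 1617 (mutant) and 572 of 1567 (wild type).

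**Figure D1:**
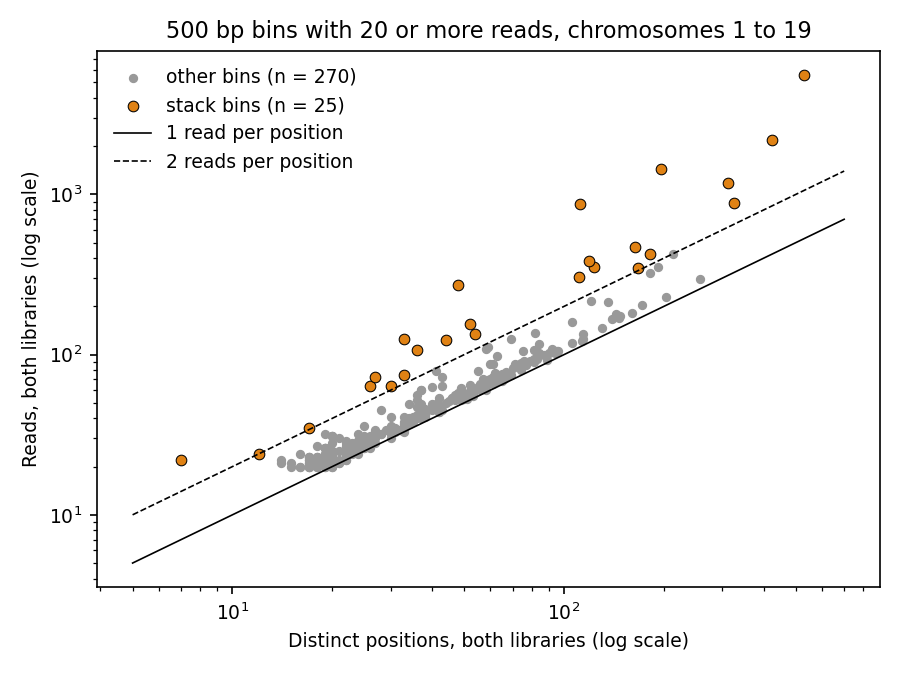
Reads against distinct positions, both libraries summed and both axes on a log scale, for the 295 bins with 20 or more reads. The 25 stack bins (orange) lie on or above the dashed line of 2 reads per position and the fullest holds 5557 reads, while the 270 other bins (grey) lie between that line and the solid line of 1 read per position and hold at most 423 reads.

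Most stack reads lay at few places. Chromosome 2 held 2 sites with 66.5% of all stack reads, and chromosome 9 held 9 sites with 29.4%. The remaining 7 sites lay on chromosomes 1, 4, 5, 7, 8 and 12. The fullest site, on chromosome 2 from 98506001 to 98507500, alone took 45.3% of the stack reads. It held 3697 mutant reads at 490 positions and 3395 wild-type reads at 474. Its neighbour from 98502001 to 98503500 held 1815 reads at 311 positions and 1504 reads at 274. The position ratios of these sites were 0.996 (0.876 to 1.13) and 1.09 (0.927 to 1.29). Of the bins between them, those from 98503501, 98504001 and 98505001 held reads, at 1.67, 1.99 and 1.56 per position, and fell below the rule, while those from 98504501 and 98505501 held none. Of the bins from 98500001 to 98510000, the only one on either side of these sites with any read began at 98508001 and held 1 mutant read.

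Within the fullest site the reads stood in narrow combs at the same bases in both libraries. The bin from 98507001 to 98507500 had the highest ratio of all, 10.5 reads per position, with 2858 mutant reads at 266 positions and 2699 wild-type reads at 263, of the 1000 positions that a bin offers on both strands. The position with most reads of the series' stacks, the plus-strand 5′ end at 98507289, held 54 mutant and 84 wild-type reads. The position 2 bp before it held 60 and 59, and that at 98507282 held 49 and 61. A separate comb contained 51 and 47 reads at 98506740 and 42 and 39 reads at 98506741. The libraries departed most, among the 12 fullest positions, at the minus-strand 5′ end at 98507162, with 24 mutant and 57 wild-type reads. Over positions of this bin the reads of the libraries had a Spearman rho of 0.773, a description in which the points share their libraries and their sequence.

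**Figure D2:**
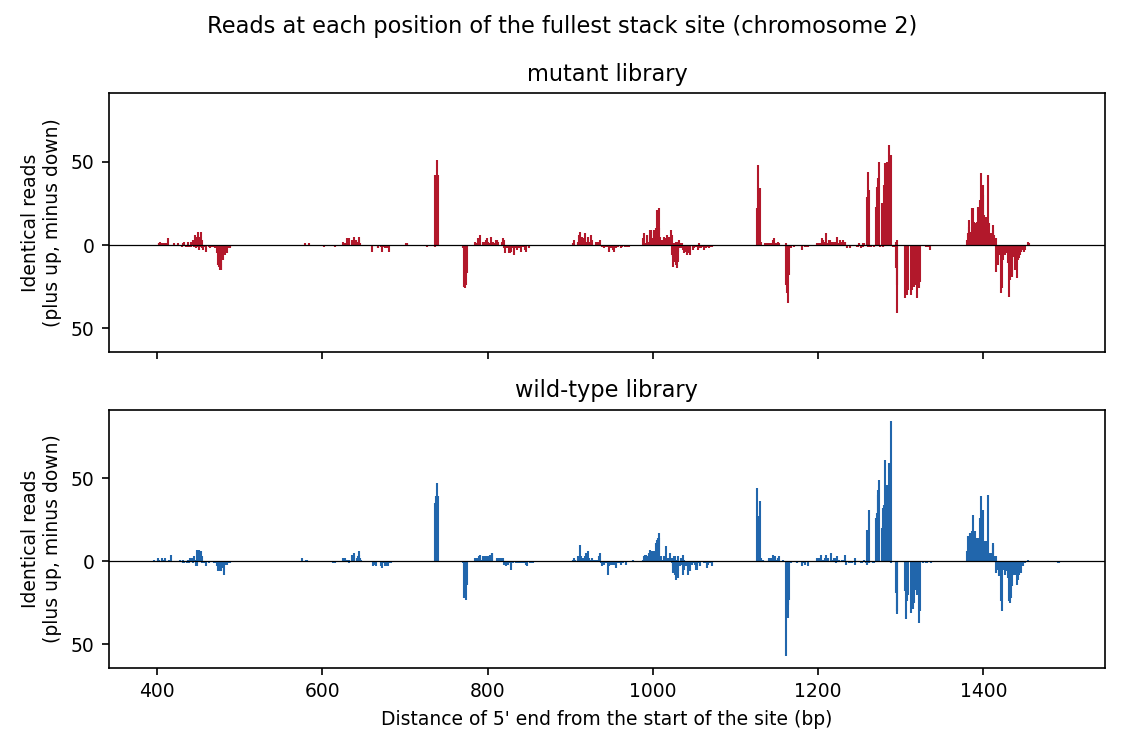
Identical reads at each 5′ end of the fullest site, against the distance in bp from the site's start, with plus-strand reads drawn upward and minus-strand reads downward, for the mutant (red, top) and wild-type (blue, bottom) library. The combs stand at the same distances in both libraries, with the highest position at 60 mutant and 84 wild-type reads.

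The site on chromosome 9 from 35112501 to 35113500 was the next in size, with 1220 mutant reads at 269 positions and 1100 wild-type reads at 252. Its position ratio was 1.03 (0.863 to 1.23). Its second bin, from 35113001, held 7.32 reads per position and the first 2.73. The surroundings were bare by comparison: the 10 kb on either side held 2.65 reads per kb at 1.15 reads per position, against 2320 reads per kb in the site. The fullest position, the plus-strand 5′ end at 35113013, held 33 mutant and 24 wild-type reads.

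The start of the assembled part of chromosome 9 held 7 sites in 9 stack bins between 3002001 and 3036500. Unlike the site at 35112501, these bins lay among many others with reads. Of 55 bins with reads between 3000001 and 3040000, 36 held 20 or more reads, and the 27 of them outside the rule had 1.16 to 1.93 reads per position. The 9 stack bins together held 1103 mutant reads at 421 positions and 1042 wild-type reads at 406. The largest of the 7 sites, from 3035501 to 3036500, held 401 and 412 reads. That from 3025501 held 256 and 167 reads, the highest read ratio of the 18 sites, 1.53, but its 99 and 83 positions gave a ratio of 1.15 with an interval that included 1 (0.850 to 1.56). The sites from 3030001, 3023501 and 3031001 held 198 and 187, 53 and 70, and 51 and 56 mutant and wild-type reads. The remaining sites there, from 3002001 and 3018001, held 110 and 120 and 34 and 30 reads. A site next to the same end of chromosome 12, from 3110001 to 3110500, held 141 reads at 54 positions and 163 reads at 57, and its surroundings held 0.500 reads per kb. The site on chromosome 9 from 24346501 to 24347000 held 69 and 65 reads at 27 positions in each library.

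The other 6 sites lay on chromosomes 1, 4, 5, 7 and 8, in surroundings of 1.75 to 5.30 reads per kb, and 5 of them held more wild-type than mutant reads. The site on chromosome 5 from 114623001 to 114623500 was the largest, with 43 mutant reads at 13 positions and 83 wild-type reads at 20. On chromosome 7 the stretch from 52879001 to 52879500 held 18 reads at 8 positions and 55 reads at 19. Its position ratio of 0.406 (0.154 to 0.971) was the only one of 18 whose interval excluded 1, and the interval is not widened for the 18 sites. That interval covers counting error only and is not a test of genotype. Counted by bin, 1 of the 25 stack bins and 25 of the 270 other bins with 20 or more reads had such an interval. The site on chromosome 1 from 12634501 to 12635000 held 13 mutant reads at 8 positions and 51 wild-type reads at 18, a position ratio of 0.428 (0.161 to 1.04). On chromosome 4 the site from 154282501 to 154283000 held 11 reads at 8 positions and 24 reads at 9. The smallest member, at 112231001 to 112231500 of chromosome 8, held 4 reads at 2 positions and 18 reads at 5. The site on chromosome 5 from 115372001 to 115372500 differed from these in direction, with 13 mutant and 11 wild-type reads at 6 positions each.

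Presence in a library was set at 10 or more reads and 2 or more reads per position in that library alone. By this measure 18 bins were stacks in both libraries, 3 in the mutant library alone and 4 in the wild-type library alone. Joined into sites the numbers were 13, 2 and 3. All 12 sites with 100 or more reads were present in both libraries, and 1 of the 6 smaller sites was, that on chromosome 7. The sites present in the wild-type library alone lay on chromosomes 1, 4 and 8, with 2.83, 2.67 and 3.60 wild-type reads per position against 1.63, 1.38 and 2 mutant reads per position. The bin from 3036001 on chromosome 9 also counted as wild type alone, at 2.21 against 1.93, and belongs to a site present in both. Those present in the mutant library alone lay on chromosome 9 from 3018001 (2.43 against 1.88) and on chromosome 5 from 115372001 (2.17 against 1.83). The third such bin, on chromosome 9 from 3002001, had 2.63 against 1.94 and belongs to a site present in both. None of the 25 bins was without reads in either library, so presence in 1 library here means a level on either side of a limit. Presence applies the rule's own limit on reads per position to each library. A summed value of 2 or more requires 2 or more in at least 1 library. The counts are therefore partly set by the rule and are a description. No share over bins outside the rule is given for comparison. Such bins can also pass: that on chromosome 2 from 98504001 had 1.94 mutant and 2.03 wild-type reads per position.

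**Figure D3:**
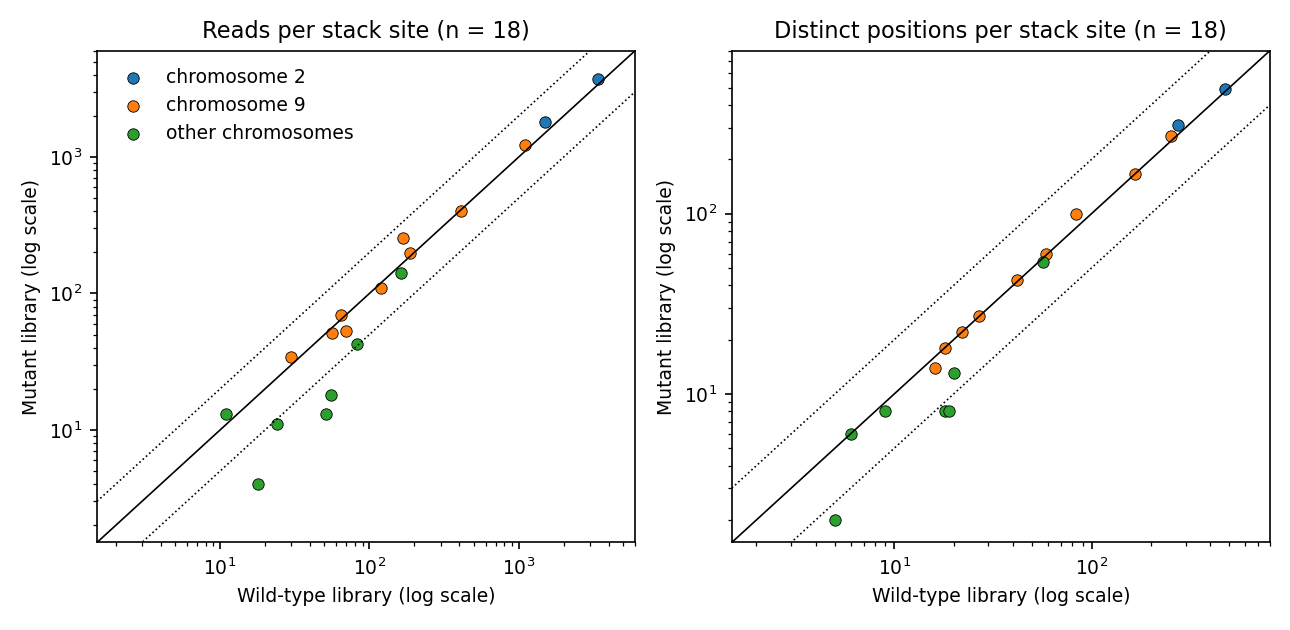
Mutant against wild-type reads (left) and distinct positions (right) of the 18 stack sites, unscaled and on log axes, with the line of equality (solid) and 2-fold lines (dotted). The sites on chromosomes 2 and 9 lie along the line of equality, while 4 sites on other chromosomes lie below the lower 2-fold line in reads and 3 in positions.

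In reads, 4 of the 25 stack bins were 2-fold or more lower in the mutant library and 0 were 2-fold or more higher. Among all 295 bins with 20 or more reads, the stacks included, 10.8% were lower and 6.10% higher by this rule, 16.9% in either direction. In distinct positions 3 stack bins were lower and 0 higher, against 7.80% and 4.75% of the 295, or 12.5% in either direction. The share of stack bins past 2-fold in either direction is thus near that of all bins with 20 or more reads, though all such stack bins were lower. The sets differ in depth, with a median of 274 reads in stack bins and 41.5 in the other bins. The 4 bins were the sites on chromosomes 1, 4, 7 and 8, and in positions the site on chromosome 4 was not past 2-fold. With 1 library per genotype no test of the genotype exists. The 12 sites with 100 or more reads had read ratios between 0.519 and 1.53, the lowest on chromosome 5 from 114623001, and a summed position ratio of 1.01 (0.944 to 1.09). The 6 smaller sites had a summed position ratio of 0.607 (0.411 to 0.890), from 93 mutant and 189 wild-type reads. These sites were picked by the rule and pooled by their number of reads, so this interval is a description and not a test of genotype.

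Bins below the limit on reads are given as a description, since they too are picked by reads per position. The 272 bins with 10 to 19 reads and 2 or more reads per position held 806 mutant reads at 510 positions and 2105 wild-type reads at 788. With neighbouring clusters, described below by their place on the flow cell, counted once, 176 of the 272 still had 2 or more reads per position. Whether such picking favoured the library with more repeated reads, here the wild type, was not tested. Reads beyond the first at their position made up 8.04% of the mutant and 11.5% of the wild-type reads outside the stacks. Inside the stacks these shares were 80.2% and 79.1%. The part of this difference in repeated reads in the values of the small sites was not tested. Just inside the limit on reads per position lay the bins on chromosome 5 from 115372001 (exactly 2), chromosome 4 from 154282501 (2.06) and chromosome 9 from 3036001 (2.07). Just outside it lay chromosome 2 from 98504001 (1.99) and chromosome 9 from 3027501 (1.93) and 3016001 (1.90). The least filled members held 22, 24 and 35 reads on chromosomes 8, 5 and 4, and bins just below the limit of 20 reads held 17 on chromosome 6, 16 on chromosome 15 and 15 on chromosome 14.

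Most stack reads lay at bases read in both libraries. Of 2029 positions read in a stack bin in either library, 1155 (56.9%) were read in both, and these held 90.2% of the mutant and 90.9% of the wild-type stack reads. Of 425 positions with 5 or more identical mutant reads, 408 (96.0%) held a wild-type read and 269 held 5 or more. Of 387 positions with 5 or more wild-type reads, 376 (97.2%) held a mutant read. Among positions with 20 or more reads, all 108 chosen in the mutant library and all 90 chosen in the wild-type library were read in the other. Bins were picked by the reads of both libraries summed, so these shares are partly set by the rule and are a description. No such share is given for the other bins. Chromosome 2 held 66.5% of the stack reads and weighs most in them. At the site on chromosome 8, with 2 mutant and 5 wild-type positions, 1 was read in both. Over the 2029 positions the reads of the libraries had a Spearman rho of 0.454, which is a description, since positions were included for being read in at least 1 library. Bins varied in this: of the 8 stack bins with 100 or more positions read in either library, rho ran from -0.0400 on chromosome 9 from 3036001 to 0.773 and 0.781 in the fullest bins of chromosome 2 and of the site on chromosome 9 from 35112501.

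The read names give the place of each cluster on the flow cell. Both files carry lane 7 and 120 tiles, and no read name occurs in both. The rule selected bins for many identical reads, so pairs and repeated reads in stacks are numerous by choice, and the shares of them given here are a description. Of 64865 pairs of identical mutant reads in stacks, 1.63% lay on the same tile and 0.789% within 100 units of each other in x and y, the units of the read name. Outside the stacks 43.0% of 279448 pairs lay on the same tile and 42.5% within 100 units. For wild-type reads the shares of near pairs were 0.934% of 59515 pairs in stacks and 29.2% of 425853 pairs outside. Pairs drawn without regard to position would fall on the same tile in 0.839% (mutant) and 0.838% (wild type) of cases, from the share of reads on each tile.

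**Figure D4:**
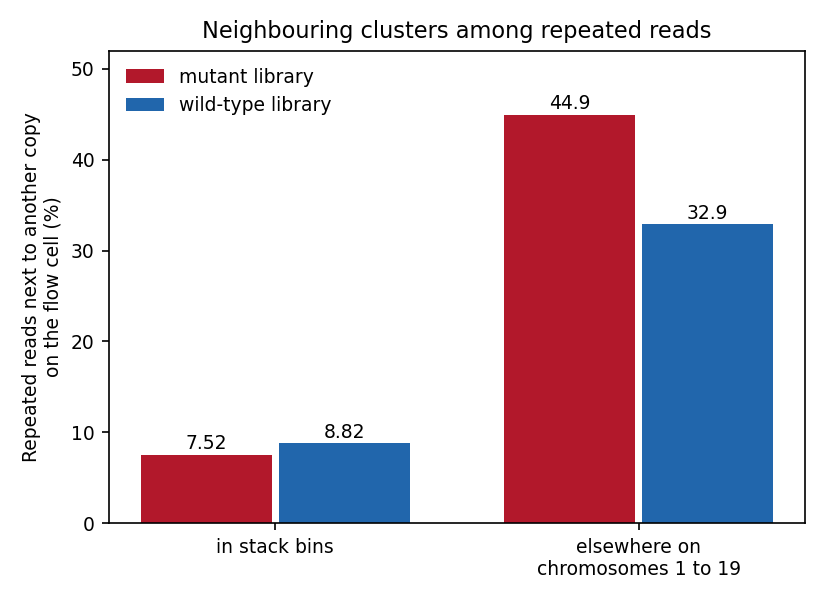
Share of repeated reads (reads beyond the first at their position) that are removed when copies within 100 units on the same tile are counted once, for stack bins and the rest of chromosomes 1 to 19, in the mutant (red) and wild-type (blue) library. The share is 7.52% and 8.82% in stacks, where the rule selected for repeated reads, and 44.9% and 32.9% elsewhere.

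When such neighbours were counted once, 491 of 6530 repeated mutant reads in stacks were removed, and 524 of 5944 wild-type reads. Out of all reads the order was the other way: 6.03% of mutant and 6.98% of wild-type stack reads were removed, against 3.61% and 3.78% of those elsewhere. Reads per position in the stacks fell to 4.73 and 4.46, while outside them they came to 1.05 and 1.09. Of the 18 sites, 16 still had 2 or more reads per position. The exceptions were chromosome 5 from 115372001, at 1.67, and chromosome 9 from 3018001, at 1.87, both counted above as present in the mutant library alone. The fullest site kept 6.87 reads per position and the site on chromosome 9 from 35112501 kept 4.17. The 3 sites on chromosomes 4, 7 and 8 and that on chromosome 5 from 114623001 lost no read. Copies made by PCR before the flow cell are not seen by this measure.

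Many stack bins had their reads in a short stretch, while sites joined from 2 or 3 bins were broader. The shortest stretch of 5′ ends holding 90% of a bin's reads had a median of 56 bp over the 25 stack bins, and it was under 100 bp in 16 of them. In the 270 other bins with 20 or more reads the median was 353 bp, and 26 were under 100 bp. Of the 6 sites under 100 reads, 90% of the reads fell in 36 bp on chromosome 8 and 39 bp on chromosome 4. Those on chromosomes 7 and 1 needed 43 and 78 bp. That on chromosome 5 from 115372001 needed 32 bp and that on chromosome 9 from 3018001 needed 41 bp. The larger site on chromosome 5 from 114623001, with 126 reads, needed 42 bp. The fullest site needed 699 bp and its neighbour on chromosome 2 560 bp, and the fullest bin needed 403 of its 500 bp. On chromosome 9 the sites from 3002001, 3035501 and 35112501 needed 854, 560 and 254 bp. Joined sites can exceed the 500 bp of a bin by their size alone, and their bins differed. On chromosome 2 the bins from 98502001, 98502501 and 98503001 needed 45, 489 and 39 bp. The rule asks for few positions per read, which can itself favour short stretches, so the contrast with the other bins is a description. Bins of the same size can differ in this by how many positions they hold, and no test was made because bins of the same libraries are not replicates.

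The strands met over the same bases. A read here spans 36 bp, so a plus-strand and a minus-strand read that cover the same 36 bp have 5′ ends 35 bp apart. In stack bins this was the most frequent offset in both libraries, with 505 and 483 pairs of distinct positions, 5.20 and 5.59 times the mean over offsets from -100 to 300 bp. Offsets of 200 to 230 bp stood at 0.403 and 0.483 times that mean. The other bins with 20 or more reads had their peak at 35 bp too, at 3.69 and 3.12 times the mean, so the peak itself is not particular to stacks. At 200 to 230 bp these other bins stood at 0.639 and 0.595 times their mean. Reads that lie within 100 bp of each other cannot form pairs at such offsets, so these levels also depend on the widths given above. In the site on chromosome 8 the fullest position, the minus-strand 5′ end at 112231346, held 0 mutant and 7 wild-type reads, and the plus-strand end at 112231311, over the same 36 bp, held 0 and 6. On chromosome 5 the ends at 114623156 and 114623121 held 9 and 13 reads on the minus strand and 5 and 10 on the plus strand. At the fullest position of all, 98507289 on chromosome 2, the partner end at 98507324 held 22 and 30 reads. Other sites had sparse partner ends at their fullest positions. At 35113013 on chromosome 9, with 33 mutant and 24 wild-type reads, the partner end held 4 and 3. At 98502999 on chromosome 2, with 47 and 39, it held 6 and 4, and at 12634892 on chromosome 1, with 2 and 10, it held 0 and 1.

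**Figure D5:**
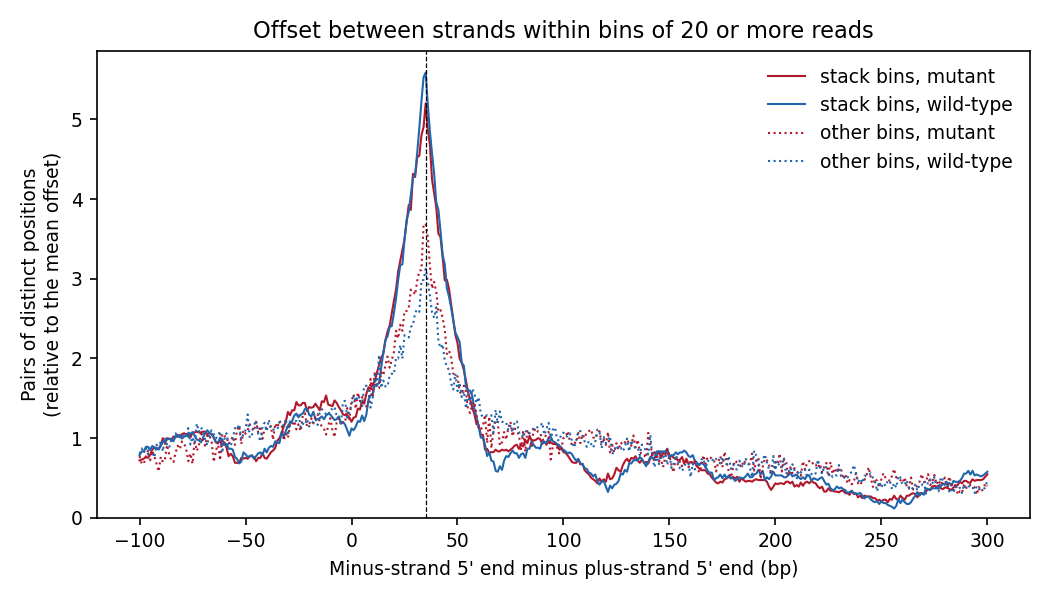
Pairs of distinct positions by the offset in bp from the plus-strand to the minus-strand 5′ end, relative to the mean over the plotted offsets, in stack bins (solid) and other bins with 20 or more reads (dotted), for the mutant (red) and wild-type (blue) library. All 4 curves peak at 35 bp (dashed line), at 5.20 and 5.59 in stack bins and 3.69 and 3.12 in other bins.

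Strand shares varied from bin to bin. The median stack bin had 50% of its reads on the plus strand, as did the median of the other bins. Between 40 and 60% lay 13 of 25 stack bins and 152 of the 270 other bins. The extremes lay in the same site on chromosome 2, on either side of the bin from 98502501. The bin from 98502001 had 93.8% of its reads on the plus strand and the bin from 98503001 had 10.2%. A bin border passed between the plus-strand comb that includes 98502999 and the end over the same 36 bp on the minus strand, at 98503034. Another border passed between the plus-strand end at 98502477 and the minus-strand end over the same 36 bp, at 98502512. Over the whole site from 98502001 to 98503500 the share was 54.3% (mutant) and 49.4% (wild type), and in its bin from 98502501 it was 66.1% and 60.6%. The fullest site had 58.1% (mutant) and 59.1% (wild type), and the site on chromosome 9 from 35112501 had 62.8% and 63.7%. In the 9 stack bins at the start of chromosome 9 the share ran from 32.8 to 47.3%, below 50% in each bin. The small site on chromosome 5 from 115372001 had 30.8% (mutant) and 81.8% (wild type), from 13 and 11 reads, and no 36 bp stretch there was read on both strands.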

How the data were processed

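The deposited files hold aligned 36 bp reads, 1 to a line, from Bowtie as the submitters' processing notes say. Its version and settings, and how multiply placed or repeated reads were handled, were not given in the sources used here. The deposited score, 255 throughout, was not used. Start, end and read name are other deposited values, from which the 5′ end, strand, tile and x and y were taken. Reads, unshifted, were counted in bins of 500 bp. The limit of 100 units for neighbouring clusters and that analysis were chosen after seeing the data. Members and lists were chosen with earlier results of these data known. All 18 sites are named; the rule for naming covered the fullest sites, those of 1 library and those beside the limits. No gene list applies. Counting and collapsing were tested on simulated data. Bin size and start, both limits, the way positions are counted, scaling and the fullest site were varied. Ratios have exact Clopper-Pearson 95% intervals. Scripts ran in Python 3.11.15 using pandas 2.3.3, numpy 2.4.6, scipy 1.17.1 and matplotlib 3.10.9.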

Additional observations from a re-analysis of the deposited data

Results flagged for a closer look

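Chromosome X lies outside the rule, and 1 of its bins met both limits. The bin from 139917501 to 139918000 held 245 reads in both libraries, far above the 3 reads that a count of 0 allows. There were 145 mutant reads at 36 positions and 100 wild-type reads at 35, 3.45 reads per position, and a position ratio on the autosomal scale of 0.991 (95% exact interval 0.605 to 1.63). No bin of chromosome Y or the mitochondrial genome met the limits.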

How the results depend on the processing

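Stack bins numbered 25, and 51 with 1.5 or more reads per position, 9 with 3 or more, 297 with 10 or more reads and 44 with positions counted once over both libraries. Under these settings in the same order the share of reads was 0.303, 0.197, 0.281 and 0.297% in the mutant library and 0.280, 0.180, 0.301 and 0.272% in the wild-type library. With neighbouring clusters counted once, a setting chosen after seeing the data, it was 0.243 and 0.221%, and without the fullest site 0.140 and 0.129%. Admitting 10 or more reads turned the read ratio to 0.932 and gave a position ratio of 0.871. The other 10 settings left both ratios within their intervals. Bins present in both libraries numbered 39 at 1.5 and 8 at 3 reads per position. Those in the mutant library alone numbered 0 at 3 reads per position, 10 at 10 or more reads and 1 with bins of 200 or of 1000 bp. Those in the wild-type library alone numbered 10 at 1.5 and 1 at 3 reads per position, 71 at 10 or more reads, 2 at 40 or more reads, 2 with bins of 1000 bp and 7 with positions counted once. Bins present in neither numbered 198 at 10 or more reads, 15 with positions counted once and 2 when presence needed 20 reads. Positions with 10 or more identical reads were read in the other library in 100% (mutant) and 99.5% (wild type) of cases. The causes were not tested, except that looser limits admit more bins. With 1 library per genotype none could be left out. No paired analysis was possible because each genotype holds 1 library. Depth limits small sites, whose ratios rest on few positions.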
